A study of Mus musculus with 119 samples.

Results

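A panel of 10 astrocyte genes was followed through RNA from 5 brain regions of mice given THC or vehicle in adolescence. The genes, Slc1a2, Slc1a3, Aldoc, Aldh1l1, Aqp4, Gja1, Gjb6, Gfap, S100b and Fgfr3, were chosen by name as markers of this cell type, with earlier results of these data known, and are 10 of the 55291 gene symbols in the count tables. Female and male mice, labelled C57BL/6J and 11 weeks old, had 21 daily intraperitoneal injections of THC at 10 mg/kg or of vehicle, the first at PND 28 and the last at PND 48 (PND, postnatal day). Behaviour was tested from PND 63. Punches were taken of the ventral tegmental area (VTA), amygdala (Amy), nucleus accumbens (NAc), prefrontal cortex (PFC) and dorsal striatum, which is called DMS in the sample titles, dorsolateral in the tissue label and dorsomedial in the methods. The methods name the C57BL/6NCrl substrain and an age that differ from the labels. The vehicle was ethanol, Tween and saline, so the control mice also had daily injections, and no group was left untreated. The 119 libraries form 20 groups of region, sex and treatment, with 6 libraries in each, other than the 5 of vehicle-treated males in the VTA. The methods also report that a male VTA sample was found to be an outlier and left out, and do not name it. All 11 male VTA libraries of the series were used here. A punch holds all the cells of a piece of tissue, and fewer astrocytes cannot be told apart from less RNA of a gene per astrocyte in such samples.

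Astrocytes are the glial cells that surround synapses and wrap the blood vessels of the brain. They take up the glutamate and potassium that neurons release, pass ions and metabolites to one another through gap junctions, move water at their end-feet on vessels, and hand glutamine and lactate back to neurons. Their gene expression differs between brain regions, and Gfap in particular is known to be scarce in the astrocytes of grey matter and abundant in those of white matter and of the brain surface.

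The total of expected counts per library ran from 3090998 to 77042133 with a median of 22092612. The VTA libraries, which held both extremes, and the Amy libraries (8713204 to 76111373) were the most uneven in depth. All 10 genes passed the filter on low counts in each comparison below. Counts of genes on the X and Y chromosomes went against the sex label in 2 libraries, the library labelled female Amy THC (FTL_344) and a library labelled male Amy THC (FTL_356), so the Amy fits were also run without them and those values are given beside the results. The labels do not tie a library to a mouse. By the study's methods each brain was punched in all 5 regions, so the libraries of the regions come from the same mice. The regional fit treats them as independent, and its p-values measure only the spread between libraries.

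A stretch of 250 bases before the transcription start is shown for 3 of the genes, because they represent both directions of the regional pattern described below: S100b and Gjb6 were higher in the VTA than in the other regions, and Slc1a3 is one of the 2 that were lower. The sequences are RefSeq's on the GRCm38.p6 build and are written 5′ to 3′ on the strand of the gene. Capitals mark TTGGCA, one arm of the site of nuclear factor I, a factor of astrocyte formation, or TTCNNNGAA, the site of STAT factors.
S100b, chr10:76253586-76253835, plus strand: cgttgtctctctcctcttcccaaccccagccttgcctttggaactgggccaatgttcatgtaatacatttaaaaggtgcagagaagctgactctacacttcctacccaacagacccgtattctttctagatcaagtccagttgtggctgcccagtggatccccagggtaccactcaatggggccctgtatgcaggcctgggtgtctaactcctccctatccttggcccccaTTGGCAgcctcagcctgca
Gjb6, chr14:57133612-57133861, minus strand: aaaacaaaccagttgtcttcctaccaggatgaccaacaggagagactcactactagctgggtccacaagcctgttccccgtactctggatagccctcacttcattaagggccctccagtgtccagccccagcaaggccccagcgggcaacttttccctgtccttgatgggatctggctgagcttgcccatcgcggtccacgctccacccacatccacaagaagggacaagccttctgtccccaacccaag
Slc1a3, chr15:8710808-8711057, minus strand: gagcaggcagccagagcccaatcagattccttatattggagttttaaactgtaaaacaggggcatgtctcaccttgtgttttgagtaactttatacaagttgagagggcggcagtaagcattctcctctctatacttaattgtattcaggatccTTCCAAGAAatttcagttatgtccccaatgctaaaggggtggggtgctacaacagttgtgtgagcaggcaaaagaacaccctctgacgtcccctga
None of these 3 windows holds an annotated exon. No window of Aqp4 was searched. On both strands, TTGGCA occurred in 2 of the 11 windows of the other 9 genes. It occurred in 12.3% of 32851 mouse promoter windows of this length. It lay 19 bases before the start of S100b and 146 before one of the 2 starts of Aldoc. TTCNNNGAA occurred in 2 windows (7.02% of all), those of Slc1a3 and of the other Aldoc start. The complete palindromic site of nuclear factor I (0.0365% of all) and the SOX core ACAATGG (3.02% of all) were in 0 of the 11. The GC content was 53.6% for S100b, 56.8% for Gjb6 and 44.8% for Slc1a3, against a mean of 53.2% over all windows. These matches are letters in a window and were not tested as binding sites.

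Levels are given in the unit CPM, the counts of a gene relative to the scaled library total, with all libraries scaled together. The glutamate transporters come first. Slc1a2 encodes GLT-1, which clears most of the glutamate released in the forebrain, and lies at chr2:102658659-102790784. Its mean was 2112 CPM (SD 125, n = 24) in the PFC, 1753 (SD 146, n = 24) in the NAc, 1588 (SD 102, n = 24) in the DMS, 1582 (SD 235, n = 24) in the Amy and 1143 (SD 74.0, n = 23) in the VTA. The lowest, median and highest VTA libraries were at 1037, 1126 and 1287 CPM, and those of the PFC at 1881, 2101 and 2334. The PFC and VTA libraries did not overlap. Slc1a3 encodes GLAST, the related transporter that is abundant in the cerebellum and in radial glia, and lies at chr15:8634124-8710764. It was highest in the NAc, at 547 CPM (SD 32.9), and lowest in the VTA, at 272.1 (SD 40.1), with the Amy at 472 (SD 28.3), the PFC at 394 (SD 17.2) and the DMS at 368.3 (SD 30.8). The VTA was thus the lowest region for both transporters, while the highest region differed between them.

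The other 8 genes had their highest mean in the VTA. Aldoc, the aldolase of brain glycolysis (chr11:78322968-78327781), averaged 1114 CPM (SD 93.4) there and between 569 and 682 in the other regions. Aldh1l1, a folate enzyme used as a general astrocyte marker (chr6:90486427-90600203), averaged 84.0 CPM (SD 7.79) in the VTA and 44.3 to 55.5 elsewhere. The lowest VTA library, at 74.6 CPM of Aldh1l1, stood above the highest of any other region, at 63.7.

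Of the channels and junction proteins, Aqp4, the water channel of the end-feet, was highest in the VTA, where the lowest, median and highest libraries held 174, 316.8 and 484 CPM. It averaged 85.2 (SD 16.5) in the Amy, 68.8 (SD 5.92) in the PFC, 62.4 (SD 6.76) in the NAc and 60.8 (SD 5.12) in the DMS. The highest Amy library held 122 CPM of Aqp4. Every VTA library was therefore above every library of the other 4 regions. Gja1 encodes connexin 43, the main gap junction protein of astrocytes (chr10:56377330-56402513), and averaged 236 CPM (SD 26.7) in the VTA, 169 (SD 10.5) in the NAc, 158 (SD 16.6) in the Amy, 128 (SD 15.0) in the DMS and 110 (SD 5.17) in the PFC. Gjb6, connexin 30, which pairs with connexin 43 in the same cells (chr14:57123303-57133611), averaged 64.9 CPM (SD 12.7) in the VTA and 15.0 (SD 2.16) in the DMS, with 25.9 to 28.1 in the other 3 regions. The highest DMS library, at 19.4 CPM of Gjb6, lay below the lowest PFC library, at 23.2.

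Gfap, the intermediate filament of the astrocyte cytoskeleton (chr11:102887336-102900912), had the widest range of the 10. It averaged 588 CPM (SD 365.1) in the VTA, 147 (SD 64.5) in the Amy, 44.2 (SD 11.7) in the NAc, 42.3 (SD 20.8) in the PFC and 24.5 (SD 9.32) in the DMS, a ratio of 24.0 between the means of the highest and lowest regions. The VTA libraries ran from 105 to 1230 CPM with a median of 655, and the Amy libraries from 44.9 to 311.8 with a median of 144, so the regions overlapped at the low end of the VTA. S100b, a calcium-binding protein of astrocytes that maturing oligodendrocytes also express (chr10:76253853-76261159), averaged 236 CPM (SD 38.2) in the VTA, 101 (SD 19.95) in the Amy, 91.8 (SD 9.68) in the DMS, 75.7 (SD 4.95) in the PFC and 65.3 (SD 9.19) in the NAc. Fgfr3, a receptor of fibroblast growth factors (chr5:33721674-33737068), averaged 191 CPM (SD 15.0) in the VTA, 110 (SD 8.30) in the Amy, 102 (SD 8.60) in the NAc, 80.7 (SD 6.46) in the PFC and 71.5 (SD 5.37) in the DMS.

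**Figure D1:**
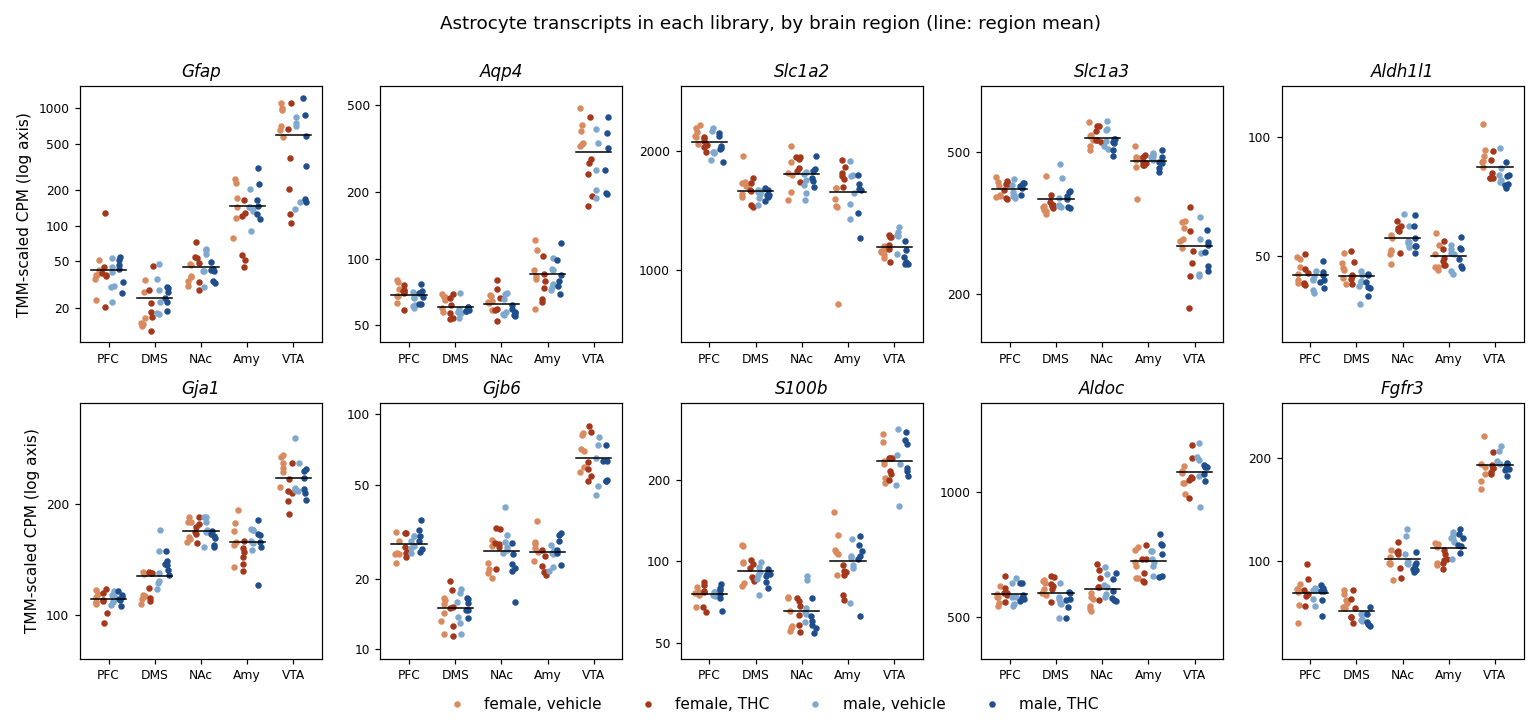
Level of each of the 10 genes in the 119 libraries, as CPM on a log axis, with 1 panel per gene and the regions along the horizontal axis; each point is 1 library and the bar is the region mean. The VTA is the highest region in 8 panels and the lowest for Slc1a2 and Slc1a3, and Gfap runs from a mean of 24.5 CPM in the DMS to 588 in the VTA.

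Divided by the exon length of each gene, the levels can be compared between genes. On this scale of CPM per kilobase, Aldoc led in all 5 regions, from 174 in the PFC to 341.5 in the VTA. Slc1a2 came next in 4 regions, at 120 in the Amy, 121 in the DMS, 133 in the NAc and 161 in the PFC. In the VTA, at 87.0, it stood behind S100b (159) and Gfap (139) as well. Gfap was the last but 1 of the 10 in the PFC and the DMS, at 10.0 and 5.81 CPM per kilobase. Gjb6 was the lowest in the DMS (5.61), NAc (9.81) and Amy (9.68), and Aldh1l1 in the PFC (9.87) and VTA (18.6). Overlapping transcripts on the opposite strand are annotated at 6 of the genes, among them the protein-coding Dip2a at S100b, and the strand setting of the counting was not given in the sources used here, so those levels carry that uncertainty.

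The regional differences were tested in 1 edgeR fit of the 119 libraries, and a gene was called where the adjusted p was under 0.05 and the log2 fold change reached 0.4 in either direction. Against each of the other 4 regions the VTA differed in 10 of 10 genes, 8 higher and the glutamate transporters Slc1a2 and Slc1a3 lower. The share of all 17889 genes tested that was called was also large, 45.6% against the Amy, 54.2% against the NAc, 58.7% against the DMS and 56.2% against the PFC. Higher calls made up 23.5%, 27.6%, 30.5% and 30.3% of all genes in that order, and lower calls 22.1%, 26.6%, 28.2% and 25.9%. The comparisons with the Amy and NAc lie within 1 count table. The PFC and DMS were deposited in another table, and any difference between the tables enters those contrasts.

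Against the Amy, the VTA was higher by a log2 fold change of 2.03 (SE 0.20, adjusted p = 9.49e-17) for Gfap and 1.86 (SE 0.07, adjusted p = 5.96e-47) for Aqp4. Gjb6 followed at 1.35 (SE 0.07) and S100b at 1.25 (SE 0.06), and Fgfr3 (0.82), Aldh1l1 (0.76), Aldoc (0.73) and Gja1 (0.61) were raised less. Slc1a2 was lower by 0.45 (SE 0.04, adjusted p = 8.28e-20) and Slc1a3 by 0.78 (SE 0.04, adjusted p = 3.09e-40). The libraries of the regions did not overlap for 7 of the 10, against 16.3% of all genes, and overlapped for Gfap, Slc1a2 and Gja1. The median of the 10 log2 fold changes was 0.79, where that of all genes was 0.00. Without the 2 libraries that go against their sex label the values were close, with Gfap at 2.04 and S100b at 1.20. In the vehicle libraries alone Slc1a2 was lower by 0.36, which is under the fold set for a call.

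Against the NAc the differences were wider for Gfap, at 3.72 (SE 0.22, adjusted p = 4.10e-32), Aqp4, at 2.27, and S100b, at 1.84. Slc1a3 was lower in the VTA by 1.03 (SE 0.04, adjusted p = 6.12e-52) and Slc1a2 by 0.64. All 10 genes were without overlap between these regions, as were 26.5% of all genes. Against the DMS 9 of 10 were without overlap (33.8% of all genes), with Slc1a3 the exception, and against the PFC 9 of 10 (34.2%), with Gfap the exception.

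**Figure D2:**
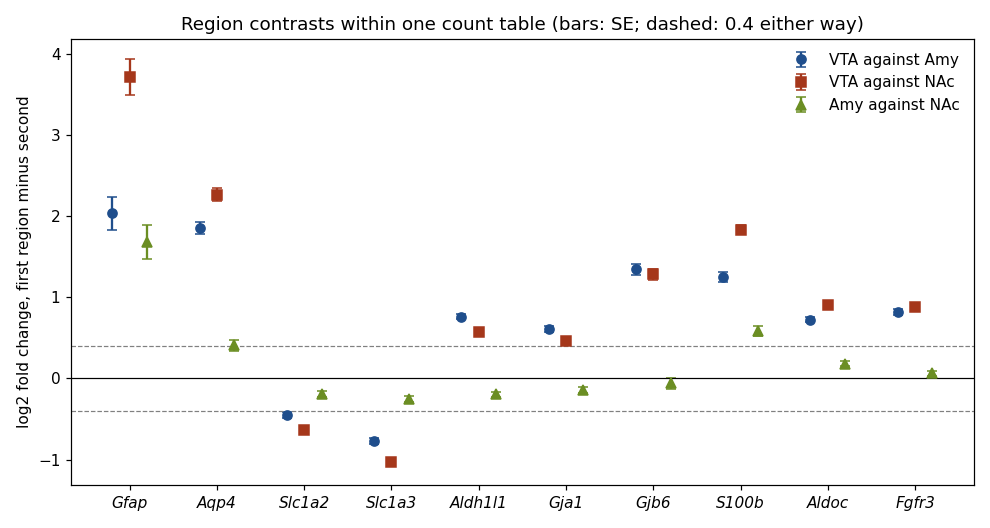
Log2 fold change of each of the 10 genes between the 3 regions of 1 count table, VTA against Amy, VTA against NAc and Amy against NAc, with bars of 1 standard error from the edgeR fit and dashed lines at 0.4 either way. In both VTA contrasts Slc1a2 and Slc1a3 lie below 0 and the other 8 genes above it, with Gfap farthest from 0 at 2.03 and 3.72.

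Among the other 4 regions fewer of the genes differed. The Amy exceeded the NAc in Gfap (1.68, SE 0.20), S100b (0.58, SE 0.06) and Aqp4 (0.41, SE 0.07), 3 of 10 genes against 27.7% of all genes (13.8% higher), with 0 of 10 free of overlap against 7.16% of all. The DMS was lower than the PFC in Gfap (-0.76, SE 0.21) and Gjb6 (-0.88, SE 0.07), 2 of 10 genes against 51.2% of all (22.7% lower), and 1 of 10, Gjb6, was free of overlap against 31.8% of all. The NAc differed from the DMS in 5 of 10 genes against 33.0% of all (17.9% higher and 15.1% lower): Gfap (0.84), Gjb6 (0.79), Slc1a3 (0.56) and Fgfr3 (0.50) were higher and S100b (-0.51) was lower. The count was 2 of 10 between NAc and PFC (47.1% of all genes, 26.9% higher), where Gja1 (0.63) and Slc1a3 (0.49) were higher in the NAc, and 4 of 10 for the Amy against the PFC (37.4%, with 20.5% higher and 16.9% lower) and against the DMS (45.4%, with 22.4% higher). The libraries were free of overlap for 2 of 10 genes between NAc and PFC (29.0% of all), 2 between NAc and DMS (11.4%), 2 between Amy and DMS (19.8%) and 1 between Amy and PFC (17.3%). Without the 2 libraries that go against their sex label, the Amy exceeded the NAc by 1.69 for Gfap, 0.67 for S100b and 0.45 for Aqp4, again 3 of 10 genes. The count against the DMS was again 4, and that against the PFC was 5, with S100b (0.45) added. Neighbours in the order of the levels that did not pass the test at any fold were the NAc and PFC for Gfap (adjusted p = 0.750), the NAc and DMS for Aqp4 (0.774) and Aldoc (0.525), the DMS and Amy for Slc1a2 (0.159) and S100b (0.208), the Amy and NAc for Fgfr3 (0.0734) and Gjb6 (0.421), the PFC and NAc for Aqp4 (0.0989) and Gjb6 (0.203), and the DMS and PFC for Slc1a3 (0.0702), Aldh1l1 (0.586) and Aldoc (0.287). Of the pairs with the Amy, 2 passed below the fold for a call in the edgeR fit without FTL_344 and FTL_356. They were S100b against the DMS (0.17, adjusted p = 0.00318) and Fgfr3 against the NAc (0.099, adjusted p = 0.00568). Slc1a2 against the DMS (0.741) and Gjb6 against the NAc (0.935) again did not pass.

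Other cell types moved with the regions too. The summed level of 10 oligodendrocyte genes averaged 15792 CPM in the VTA (10796 to 20153), 7315 in the DMS, 4653 in the Amy, 4515 in the NAc and 3175 in the PFC. That of 6 genes of the meninges and fibroblasts averaged 172 CPM in the VTA (37.5 to 469), 62.4 in the Amy and 25.4 in the PFC. A list of 7 endothelial genes stood at 201 CPM in the VTA and 108 in the Amy, and 9 microglial genes at 404 and 371.7. In the Amy the choroid plexus and ependymal list ran from 13.6 to 3453 CPM. The DMS, second in oligodendrocyte genes, was the lowest region for Gfap, Aqp4, Aldh1l1, Gjb6 and Fgfr3. It was not the lowest for the rest of the panel, and S100b was higher there (91.8 CPM) than in the PFC (75.7) or the NAc (65.3). The DMS and PFC also lie in another count table than the VTA, Amy and NAc. The part of these cells in the regional differences was not tested.

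Genes that work beside the panel were taken from lists of the same roles. Against the Amy, 23.5% of all genes were higher and 22.1% lower in the VTA. Of a list of 7 further genes of glutamate handling, which also holds a GABA and a glycine transporter, 6 were higher there and 0 lower. Among the 6 were glutamine synthetase Glul (0.82, SE 0.03), the GABA transporter Slc6a11 (1.93, SE 0.07), the glycine transporter Slc6a9 (1.58, SE 0.06) and Glud1 (0.52, SE 0.02). The median of the list was 0.82, so these 6 genes of transmitter uptake and conversion were higher where Slc1a2 and Slc1a3 were lower. Of 9 genes of water, potassium and ion transport 7 were higher, including the sodium pump subunit Atp1b2 (0.80), the bicarbonate transporter Slc4a4 (1.08) and the potassium channel Kcnj10 (1.78). Of 7 further gap junction genes 6 were higher, and Gjc3 (1.62) and Gjb1 (2.17) in that list are connexins of oligodendrocytes. Of 13 genes of metabolism and lipid transport 10 were higher, such as Apoe (0.60), Pygb (0.63) and Acsbg1 (0.97), while Clu (0.03, adjusted p = 0.274) did not pass. S100a16 (0.80), S100a1 (0.60) and S100a10 (0.49) were among the 4 of 5 S100 genes that were higher.

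Other lists were mixed in the same contrast, beside the same 23.5% and 22.1% of all genes. Of 11 genes of fibroblast growth factor signalling 4 were higher and 1 lower, and Etv5, a target of the pathway, had a log2 fold change of -0.05 (SE 0.07, adjusted p = 0.529) where Fgfr3 rose. The astrocyte transcription factors split into 3 higher and 3 lower of 9: Nfia was higher (0.56, SE 0.05), while Id4 (-0.83, SE 0.06) and Sox2 (-0.45, SE 0.05) were lower. Of 10 further astrocyte markers 6 were higher, with Sparcl1 at 0.92 and Gpr37l1 at 0.82, and 2 lower, one of them Cspg5 (-0.62). Among genes reported in reactive astrocytes, 14 of the 18 tested were higher and 1 lower, and C3 (1.99) and Gbp2 (1.38) of that list are also made by immune and vascular cells. The ubiquitous aldolase Aldoa differed by -0.06 (SE 0.03), below the fold for a call, where Aldoc rose by 0.73.

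The spread between punches of 1 group was next compared. Gfap was the most variable of the 10 in each region, with a within-group SD of log2 CPM of 1.13 in the VTA, 0.61 in the Amy, 0.56 in the PFC, 0.52 in the DMS and 0.37 in the NAc. The first of these exceeded 98% of the 18932 genes. The median of the 10 genes was 0.18 in the VTA, 0.16 in the Amy, 0.10 in the PFC and 0.11 in the DMS and NAc, against 0.19, 0.22, 0.14, 0.16 and 0.16 for all genes. Genes whose mean level lay in the range of the panel had lower medians of 0.11, 0.13, 0.07, 0.09 and 0.09. In the VTA the panel ran from Gfap down through Aqp4 (0.42) and Gjb6 (0.28) to Slc1a2, whose SD of 0.07 was below that of all but 3.41% of genes.

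**Figure D3:**
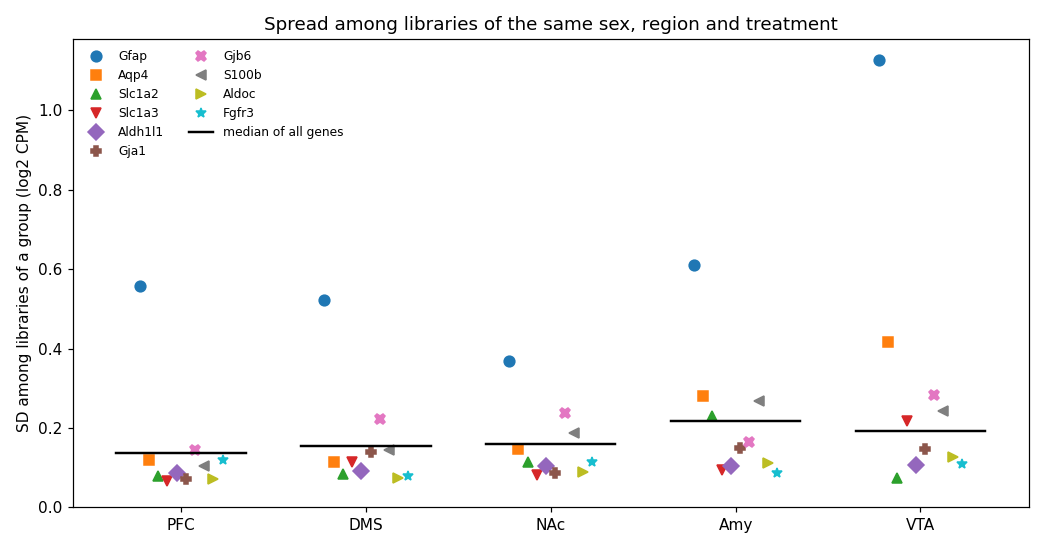
Within-group SD of log2 CPM of each of the 10 genes in each of the 5 regions, beside the median over all 18932 genes. Gfap is the highest in each region and reaches 1.13 in the VTA, while Slc1a2 falls to 0.07 there.

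For part of the panel, the spread in the VTA went with the level of the meningeal genes. In 7 of the 23 VTA libraries the summed level of Col1a1, Col1a2, Dcn, Lum, Slc6a13 and Igf2, genes of fibroblasts and meninges, was between 37.5 and 53.1 CPM, and in the other 16 it was between 78.8 and 469. The 7 were 3 libraries of THC-treated females, 2 of vehicle-treated males and 2 of THC-treated males, with 0 of vehicle-treated females. The same 7 libraries were the 7 lowest for Gfap, at 105 to 208 CPM against 321.4 to 1230 in the other 16. They were also the 7 lowest for Aqp4 (174 to 241 against 253 to 484) and for Slc1a3 (183 to 244 against 260.6 to 350.7). For Gja1 (188 to 219 against 218 to 302.3) and Gjb6 (45.5 to 58.7 against 51.8 to 89.5) 6 of the 7 lowest were shared. Aldh1l1 shared 4, Fgfr3 3, S100b 2 and Aldoc 1. Slc1a2 shared 0, with 1126 to 1287 CPM in the 7 libraries and 1037 to 1249 in the rest. Gfap in the 7 libraries lay within the range of the Amy (44.9 to 311.8), while Aqp4 in them still lay above the highest Amy library (122). The part of meningeal tissue in these values was not tested. The cut at 7 libraries was set on these same data, and the share of all genes that match it was not taken.

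**Figure D4:**
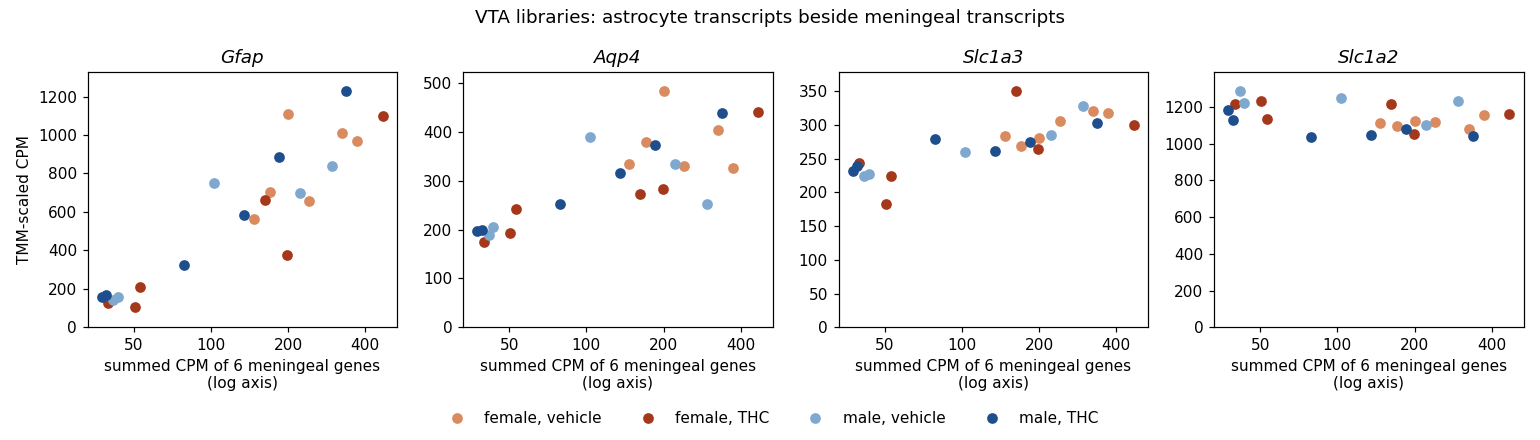
Level of Gfap, Aqp4, Slc1a3 and Slc1a2 in each of the 23 VTA libraries, as CPM, against the summed CPM of 6 meningeal genes on a log axis, with 1 point per library coloured by sex and treatment. The 7 libraries with a sum of 37.5 to 53.1 CPM hold the 7 lowest values of Gfap, Aqp4 and Slc1a3 and 0 of the 7 lowest of Slc1a2.

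The genes varied together in part. After removal of the 20 group means, the Pearson correlation of each gene with the mean of the other 9 over the 119 libraries was 0.64 for Aqp4, 0.62 for Aldh1l1, Gfap and Gja1, 0.53 for Gjb6 and 0.49 for Slc1a3. It was 0.28 for Fgfr3, 0.21 for S100b, 0.18 for Aldoc and -0.04 for Slc1a2. The genes outside the panel most like its mean deviation, of 18922, were Mlc1 (r = 0.73), Ednrb (0.72), Hspb8 (0.69), Ptgds (0.68), Slc6a13 (0.68), Gpr37l1 (0.68), Aldh1a2 (0.67), Gjb2 (0.67), Colec12 (0.67) and Rftn2 (0.66). The most unlike were Pnma2 (-0.58), Armc9 (-0.54) and Fam8a1 (-0.52). Mlc1 and Gpr37l1 are astrocyte membrane proteins, and Slc6a13, Aldh1a2, Gjb2 and Ptgds are known from the meninges. These values describe points that share libraries, depth and the make-up of the punch, and the wide VTA libraries weigh on them.

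The effect of adolescent THC was asked in each region and sex, 10 comparisons with 6 libraries a group or 5 in one case. By edgeR 0 of 10 genes were called in each of the 10 comparisons, against 1.57% of all genes in the female Amy, 0.0127% in the female DMS and 0.0% in the other 8. DESeq2 called 1 gene, S100b in the female Amy, and 0 in the other 9 comparisons. Of the 100 results of a gene in a comparison, 17 had an unadjusted p under 0.05, 4 of them higher and 13 lower with THC, and the smallest adjusted p was 0.0593. Over all genes the share under 0.05 ran from 1.84% in the male Amy to 21.9% in the female Amy, and is given by comparison below. No share by direction was pooled over the comparisons, so no direction is read from the 4 and 13. The log2 fold change was under 0.4 in size in 95.0% of the 100 results. The standard errors ran from 0.03 to 0.16 for the genes other than Aqp4 (up to 0.27) and Gfap (0.18 to 0.71), so a change of Gfap would have had to be far larger than one of Slc1a2 or Aldoc to be seen. The 2 groups were free of overlap in 1 of the 100 results, Slc1a2 in the female Amy. Over all genes that share was 4.15% in the female Amy and 0.0914% in the male Amy, 0.365% and 0.188% in the female and male PFC, 0.551% and 0.0808% in the DMS, 0.213% and 0.86% in the NAc, and 0.362% and 0.515% in the VTA.

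**Figure D5:**
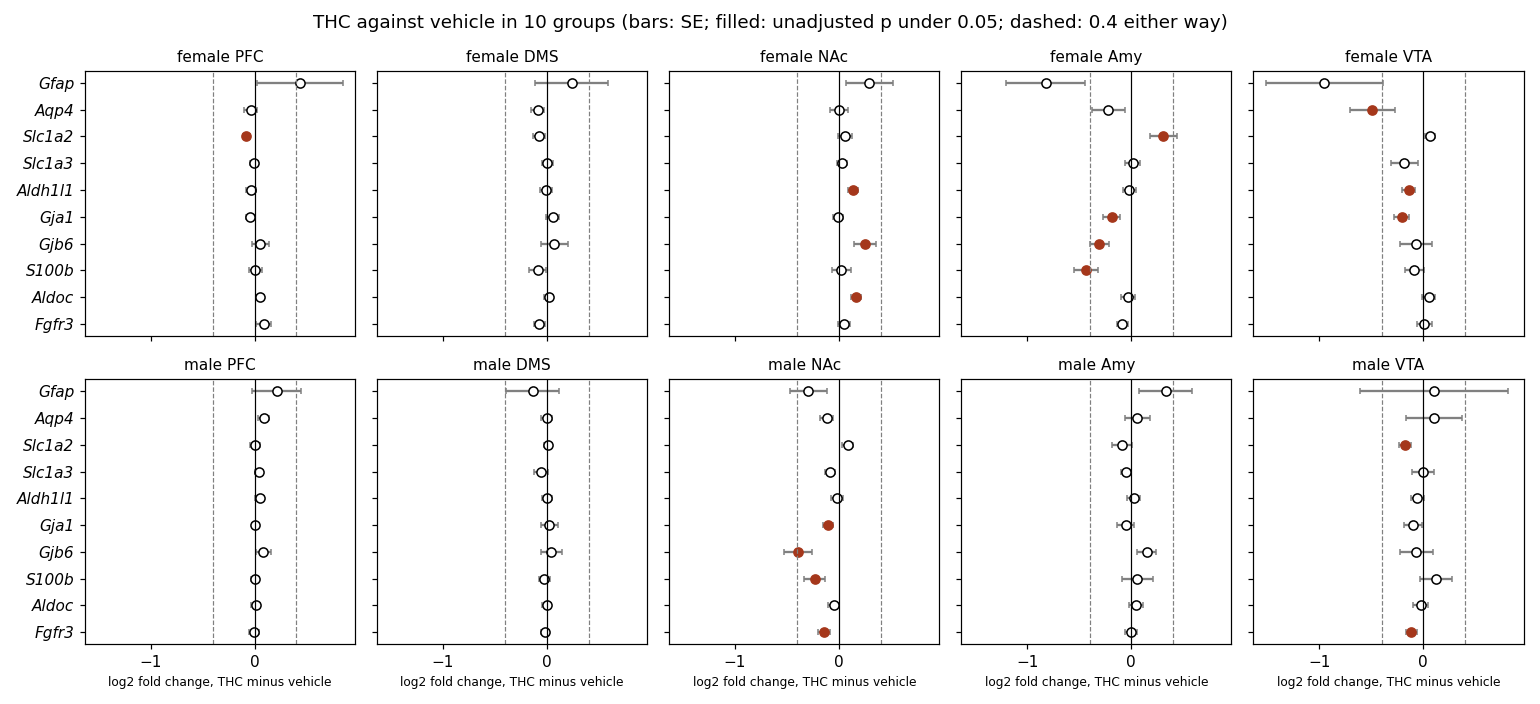
Log2 fold change of each of the 10 genes between THC and vehicle libraries of each sex and region, with bars of 1 standard error from the edgeR fit of that comparison, filled points at an unadjusted p under 0.05 and dashed lines at 0.4 either way. Of the 100 points 95.0% lie between the dashed lines, and those of Gfap are the most scattered, from -0.95 in the female VTA to 0.44 in the female PFC, with the widest bars. The 0.44 rests on the library FTL_272 and is -0.086 without it.

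The female Amy held the smallest p-values. S100b had a lowest, median and highest library of 72.1, 90.1 and 96.7 CPM with THC and of 89.2, 110 and 153 with vehicle. The groups overlapped, and 0 of the 6 THC libraries were above the vehicle median. The log2 fold change was -0.44 (SE 0.11), with an adjusted p of 0.0593 by edgeR, and -0.43 with an adjusted p of 0.0103 by DESeq2. Without the vehicle library FTL_337 it was -0.51 (adjusted p = 0.0370 by edgeR) and would be called. Without FTL_344 it was -0.39 (adjusted p = 0.123 by edgeR), and -0.38 (adjusted p = 0.0437) by DESeq2, which is under the fold for a call. The smallest difference, -0.34, came without the vehicle library FTL_338, which held the highest vehicle values of S100b (153 CPM) and Gjb6 (35.2) and the lowest of Slc1a2. Over all alternatives the adjusted p ran from 0.0103 to 0.146.

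Slc1a2 went the other way there. The THC libraries ran from 1627 to 1896 CPM with a median of 1749, and the vehicle libraries from 822 to 1618 with a median of 1483, without overlap, a pattern shared by 4.15% of all genes in this comparison. The log2 fold change was 0.31 (SE 0.13, adjusted p = 0.180 by edgeR), and 0.19 (adjusted p = 0.0355) without the vehicle library FTL_338, the library at 822 CPM. Gjb6 averaged 22.9 CPM (SD 2.31) with THC and 28.1 (SD 3.90) with vehicle, a log2 fold change of -0.31 (SE 0.09, adjusted p = 0.0900 by edgeR). For Gja1 it was -0.19 (adjusted p = 0.187). Gfap averaged 94.6 CPM (SD 50.4) with THC and 166 (SD 66.2) with vehicle, at -0.82 (SE 0.38, adjusted p = 0.233), and its groups overlapped. Without FTL_344 the values were 0.31 for Slc1a2 (adjusted p = 0.268 by edgeR), -0.29 for Gjb6 (0.177), -0.18 for Gja1 (0.285) and -0.91 for Gfap (0.278). In the female Amy 4 of the 10 genes, S100b, Slc1a2, Gjb6 and Gja1, had an unadjusted p under 0.05, 1 higher and 3 lower, as had 21.9% of all genes (10.8% higher and 11.1% lower).

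Oligodendrocyte genes moved beside these values: their summed level ran from 2482 to 7990 CPM (median 4541) in the vehicle-treated and from 2701 to 4716 (median 3514) in the THC-treated female Amy. The choroid plexus list ran from 14.7 to 1134 and from 13.6 to 3453 CPM in these groups, and the meningeal list from 37.2 to 90.3 and from 31.0 to 233. Their part in the differences was not tested. In the male Amy, S100b averaged 103 CPM (SD 21.2) with THC and 98.4 (SD 16.6) with vehicle, and 0 of 10 genes were under an unadjusted 0.05, as were 1.84% of all genes. Without FTL_356, at 62.7 CPM the lowest of its group, the THC mean of S100b was 111 (SD 8.90, n = 5) and the log2 fold change 0.17 (SE 0.11, adjusted p = 0.998 by edgeR), and the count under 0.05 was again 0.

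In the female VTA, Gfap ran from 105 to 1101 CPM (median 292.7) with THC and from 565 to 1110 (median 836) with vehicle, a log2 fold change of -0.95 whose standard error was 0.56 (adjusted p = 0.625 by edgeR). Aqp4 averaged 267.7 CPM (SD 95.4) with THC and 376.5 (SD 61.4) with vehicle, at -0.49 (SE 0.21, adjusted p = 0.539), and Gja1 220 (SD 24.6) and 254 (SD 18.0), at -0.20 (SE 0.07, adjusted p = 0.512). With Aldh1l1 (-0.14, adjusted p = 0.542 by edgeR), 3 of the 10 genes were under an unadjusted 0.05, all lower, against 9.02% of all genes (4.38% lower). The groups overlapped for each of these genes. The meningeal sum moved in parallel: it ran from 147 to 373.3 CPM (median 221) in the vehicle-treated females and from 39.7 to 469 (median 108) in the THC-treated, which include 3 of the 7 libraries of low sum, and its part in these values was not tested. In the male VTA, where both groups held 2 such libraries, Gfap averaged 558 CPM (SD 430) with THC and 518 (SD 339.4) with vehicle, a log2 fold change of 0.11 (SE 0.71). It ran from -0.29 to 0.35 over the 11 fits that each left out 1 library, and was below 0 without FTL_369, FTL_372, FTL_376 or FTL_377.

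Also in the male VTA, Slc1a2 averaged 1085 CPM (SD 58.7) with THC and 1218 (SD 70.1) with vehicle, at -0.17 (SE 0.06, adjusted p = 0.819 by edgeR). With Fgfr3 (-0.11, SE 0.05, adjusted p = 0.819), 2 of the 10 genes were under an unadjusted 0.05 there, both lower, against 5.92% of all genes (2.47% lower). FTL_378 (1126 CPM of Slc1a2) and FTL_379 (1183), the libraries of low meningeal sum among the THC-treated males, were the 2 highest of that group. Those of the vehicle-treated males were FTL_369 (1222) and FTL_372 (1287), and FTL_372 was the highest of its group. The part of meningeal tissue in these Slc1a2 values was not tested. In the male NAc 4 of 10 genes were under an unadjusted 0.05, against 16.7% of all genes (8.55% lower), all 4 lower with THC. Gjb6 ran from 15.9 to 28.3 CPM (median 22.6) with THC and from 25.6 to 40.2 (median 28.0) with vehicle, at -0.40 (SE 0.14, adjusted p = 0.216 by edgeR), and S100b (-0.23), Fgfr3 (-0.14) and Gja1 (-0.11) had smaller differences. In the female NAc it was 3 of 10, against 4.61% of all genes (2.43% higher), and all 3 were higher: Aldoc averaged 612 CPM (SD 44.2) with THC and 543 (SD 21.1) with vehicle (0.16, SE 0.05, adjusted p = 0.991 by edgeR), Gjb6 28.5 (SD 3.998) and 23.8 (SD 3.67), and Aldh1l1 57.7 (SD 3.56) and 52.2 (SD 3.23). In the female PFC 1 gene, Slc1a2 (-0.08), was under 0.05, with 5.84% of all genes. Gfap had the largest fold change there, 0.44, but it rested on the THC library FTL_272 at 129 CPM: the other 5 THC libraries averaged 35.9 CPM (SD 9.09) and the vehicle libraries 38 (SD 9.04), and without FTL_272, a choice made after the data were seen, the value was -0.086 (SE 0.23). In the DMS of both sexes and the PFC of males it was 0 of 10, with 8.9%, 1.93% and 4.07% of all genes.

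The difference of the THC effect between the sexes, male minus female, was called for 0 of 10 genes in each region by edgeR and by DESeq2, against 0.0059% of all genes in the Amy and 0.0% in the remaining 4 regions by edgeR. Its smallest p-values were for Slc1a2 in the VTA (-0.24, SE 0.07, adjusted p = 0.780), Gjb6 in the Amy (0.46, SE 0.13, adjusted p = 0.235) and Gjb6 in the NAc (-0.64, SE 0.19, adjusted p = 0.384). In the Amy the count was also 0 without the libraries that go against their sex label. Over both sexes together THC changed 0 of 10 genes in each region by the same rule, against 0.0% of all genes, and the lowest p in the VTA was that of Gja1 (-0.15). Between males and females 0 of 10 were called in each region, against 0.012% of all genes in the Amy, 0.109% in the VTA, 0.24% in the PFC and 0.243% in the NAc. In the DMS, Gja1 (0.21, adjusted p = 0.0163 by edgeR) was higher and Fgfr3 (-0.12, adjusted p = 0.0193) and Aldoc (-0.10, adjusted p = 0.0264) lower in males at a small fold, 3 of 10 genes where 11.1% of all genes passed at any fold and 2.64% at the fold set for a call. The choroid plexus and ependymal sum also had higher medians in males of the DMS, 31.6 CPM with vehicle and 36.5 with THC. In females they were 7.40 and 8.50, and the part of this sum was not tested.

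Across the 18 lists of related genes and of other cell types, 154 genes, THC called 0 of 1452 results by edgeR. Over all genes the share at an unadjusted p under 0.05 ran from 1.84% in the male Amy to 21.9% in the female Amy. No share by direction was pooled over all genes and comparisons, so no direction is read from the counts that follow. Of the 1452 results of the lists, 48 were higher and 117 lower at that level. The 4 with an adjusted p under 0.05 were all in the female Amy and below the fold for a call, and are named here after their values were seen: Pla2g7 (-0.35, adjusted p = 0.0258), an enzyme of lipid mediators, Fgf1 (-0.33, adjusted p = 0.0290), a growth factor ligand, Gpld1 (-0.25, adjusted p = 0.0207) and the growth factor signalling inhibitor Spry2 (0.28, adjusted p = 0.0237). In that comparison 4 of 5 S100 genes and 8 of 13 genes of metabolism and lipid transport were lower at an unadjusted p under 0.05 and 0 higher, against 11.1% and 10.8% of all genes. The oligodendrocyte sum also had a lower median with THC there (3514 against 4541 CPM), and its part in these counts was not tested. In the female VTA 6 of 9 astrocyte transcription factors and 8 of 9 microglial genes were lower at that level, against 4.38% of all genes, and 3 of the 6 THC libraries were among those of low meningeal sum, whose part was not tested either. The microglial sum there was 377.4 to 484 CPM with vehicle and 301.5 to 436 with THC. The S100, metabolism, transcription factor and microglial lists are named here out of 18, after their counts were seen. Over all 10 comparisons 11 of 90 transcription factor and 10 of 90 microglial results were lower at that level, with 1 higher in each list. For the S100 list 5 of 50 were lower and 1 higher, and for metabolism and lipid transport 17 of 130 were lower and 3 higher. Between the sexes in the DMS, C3 (2.18), Emp1 (1.21), Vim (0.59) and Gbp2 (0.42) of the 18 lists were called higher in males. Etv5 (-0.40) was called lower, and 2.64% of all genes were called in either direction. The choroid plexus and ependymal sum had higher medians in males there, as given above, and its part in these calls was not tested.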

How the data were processed

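Punches of 5 brain regions gave 119 poly(A)-selected, stranded libraries. The submitters' processing notes name cutadapt 2.9, STAR 2.7.3a and RSEM 1.3.1 and the mm10 build. The deposited values are RSEM expected counts, which the authors did not normalize, in 2 tables of 55291 symbols, one for PFC and DMS and one for NAc, Amy and VTA. Columns of per-sample values not used number 0. Groups were taken from the sample titles.

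Here the expected counts were rounded to whole numbers and tested in edgeR 4.0.16 (R 4.3.3; filterByExpr, TMM, robust quasi-likelihood F test), with Benjamini-Hochberg adjustment over all genes tested. Each THC comparison was fitted on its own 2 groups, interaction and sex on the 4 groups of a region, and regions on all libraries. A gene was called where the adjusted p was under 0.05 and the log2 fold change reached 0.4 in either direction. Levels are TMM-scaled CPM, put on the log2 scale with 2 as the prior count. Lengths, positions and overlaps are those of GENCODE M21 on GRCm38, which matched 96.2% of the symbols. Depth ran from 3090998 to 77042133 counts per library, and intervals between libraries include counting error.

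The members and lists were chosen with earlier results of these data known. The text names the 10 members, of each list those called in a THC, interaction or sex comparison or else up to 4 of highest mean CPM, and the 10 genes most alike and 3 least alike. Other genes are marked, and 2 genes that the rule names are not reported here. Gfap, Aqp4 and the other members were used only as defining astrocyte transcripts, and no purified astrocytes were measured. On counts simulated for the female NAc with 200 genes changed by a log2 fold change of 1, edgeR recovered 100% with 16 other calls among 16453 genes, and DESeq2 1.42.0 100%. All genes were simulated with the same fixed dispersion, and only genes above a set mean count were changed. The recovery therefore does not show how smaller changes, or changes of a gene as variable as Gfap, would be found. Alternatives were DESeq2, DESeq2 size factors, no filter, all 4 groups in 1 fit, raw-total CPM, another prior count, vehicle libraries alone, and leaving out libraries.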

Additional observations from a re-analysis of the deposited data

Results flagged for a closer look

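In groups of 5 or 6 libraries, the gap of the highest or lowest library to its nearest neighbour was set against the range of the group. Of 200 combinations of a gene and a group 10 passed the limit, and chance alone passes about 1 in 20. The highest of their group were Gfap in the female PFC THC library FTL_272 (129 CPM), Aqp4 in the male DMS vehicle library FTL_297 (70.1), Slc1a2 (1941) and Slc1a3 (429) in the female DMS vehicle library FTL_285, Aldh1l1 in the female VTA vehicle library FTL_358 (108) and Gjb6 in the male NAc vehicle library FTL_325 (40.2). The lowest of their group were Aqp4 in the female PFC THC library FTL_269 (59.0 CPM), Slc1a2 in the female Amy vehicle library FTL_338 (822), Aldh1l1 in the female NAc THC library FTL_317 (50.8) and S100b in the library labelled male Amy THC (FTL_356, 62.7 CPM), one of the 2 that go against their sex label.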

How the results depend on the processing

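Of the counts of genes called and the median spreads, 209 values under the alternatives kept their side, and 2 did not, in both cases a count: in the female Amy the count rose from 0 to 1 with DESeq2 and without the vehicle library FTL_337, and ran from 0 to 1 over the fits that each left out 1 library. That gene was S100b. Of the values of single genes 583 kept their side, S100b in the female Amy passed in the same 2 alternatives (-0.43 and -0.51), and Slc1a2 in the VTA against the Amy fell below the fold for a call in the vehicle libraries alone (-0.36). S100b in the Amy against the PFC, at 0.38 in the main fit, was called (0.45) without FTL_344 and FTL_356, which also raised that count. DESeq2 without the library FTL_344, an alternative chosen after the data were seen, gave 0 calls in the female Amy. The direction turned for Gfap in 2 THC comparisons where it was not called: in the female PFC it was -0.086 without FTL_272, also chosen after the data were seen, and in the male VTA it ran from -0.29 to 0.35 over the fits that each left out 1 library. Over such fits Gfap ran from -1.06 to -0.68 in the female Amy and from -1.49 to -0.74 in the female VTA. No paired analysis was possible because the groups compared share no replicate numbers in the labels. Whether depth limited the calls was not tested.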
